A study of Mus musculus with 71 samples.

Results

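The regions described here are the distal H3K27me3 peaks of mouse embryonic stem cells (ESC): the intervals of the ESC H3K27me3 ChIP-seq peak table whose centre lay more than 10000 bases from the annotated transcription start. They numbered 4253 of the 9195 peaks in the table (46.3%). Of the other 4942 peaks, 1 had no annotated distance. The 4 ESC libraries came from J1 cells, a mouse ESC line, with the labels' genotype CBX7-CaPS (CaPS here, experiments 1 and 5) or WT (experiments 1 and 5). The sample titles give these numbers as groups, such as group1. They are called experiments here, after the series' design text. From J1 ESC CUT&RUN tables, in which an antibody directs the cutting of chromatin, only the peak positions were used; they cover H3K27me3 in CaPS and WT, and RING1B in CBX7-mCaPS, CaPS and WT. Both were grown on mouse embryonic fibroblast feeders with serum and LIF. The same genotypes were set to form neural progenitor cells (NPC) by aggregation and retinoic acid after removal of the feeders, and were collected at day 6 or day 8. The day-8 H3K27me3 table gave 1 column of pooled tags per genotype, CaPS and WT. A RING1B ChIP time course covered ESC, day 6 and day 8 with 2 libraries per stage in each genotype (experiments 3 and 5). The labels do not state whether experiments used separate cultures, nor how many clones stand behind a genotype. The spread between these libraries may thus be technical. In limma's tests below, p-values rest on that spread as pooled over peaks of like signal, not on a peak's own libraries.

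H3K27me3 is laid down by Polycomb repressive complex PRC2 and is read by the chromodomain of CBX7, a subunit of PRC1, whose RING1B subunit ubiquitinates histone H2A. In ESC the mark is best known from CpG islands at the promoters of silent developmental regulators, where it can spread into broad domains. Away from starts it is also found over gene deserts beside such regulators, at unannotated CpG islands and, at low density, over much of the silent genome.

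The 4 ESC libraries held 11.0 M and 26.6 M tags for CaPS and 13.0 M and 18.6 M for WT in experiments 1 and 5, by the header totals. An observed 0 allows up to 3 tags, which was 1.13 to 2.73 tags per 10 M in these libraries (counting error alone). Values below are tags in the interval, scaled by the authors to 10 M tags per library, and are not per length unless stated.

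Distal peaks are split below into those of exactly 500 bases, the shortest width in the table, and wider ones. Distance was measured by the authors from the peak centre to 1 annotated start. The interval reached the annotated start in 2 distal peaks, those of Nr2f2 and Pax2. Because the rule selects by distance from a start, promoter windows are rarer in distal peaks by construction. Against the RefSeq promoter table (GRCm38.p6, 32851 windows from 250 bases before to 50 bases after a start), 63 distal peaks (1.48%) held at least part of a window, against 1014 other peaks (20.5%). The centres of 488 of 4115 distal peaks on chromosomes with entries (11.9%) lay within 10 kb of a RefSeq start, 17.4% of the wider ones and 9.98% of those of 500 bases. In the 250 bases before the start, the windows in wider distal peaks held a median of 10 CG dinucleotides (67 windows in 47 peaks) and 36 of them (53.7%) held at least 10. The 16 windows in 500-base peaks held a median of 2 and 0 of them held at least 10. Over the whole table the median was 6 and 37.8% of windows held at least 10; in the other peaks the figures were 14 and 67.4%.

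The sequences below are the RefSeq stretches of 250 bases before a start, 5′ to 3′ on the gene's strand, with each CG in capitals. Shown first are the 6 wider distal peaks of highest mean signal that hold a whole window and do not reach their annotated start, 1 window each. The last 2, from the highest 500-base peaks with a whole window, are given for contrast. They show how far windows under distal peaks differ in CG content.
Gm46817: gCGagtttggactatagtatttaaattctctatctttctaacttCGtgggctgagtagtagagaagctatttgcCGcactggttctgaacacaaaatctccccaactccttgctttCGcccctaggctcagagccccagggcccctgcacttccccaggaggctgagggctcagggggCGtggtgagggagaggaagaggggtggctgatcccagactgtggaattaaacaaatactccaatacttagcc
Gm10419: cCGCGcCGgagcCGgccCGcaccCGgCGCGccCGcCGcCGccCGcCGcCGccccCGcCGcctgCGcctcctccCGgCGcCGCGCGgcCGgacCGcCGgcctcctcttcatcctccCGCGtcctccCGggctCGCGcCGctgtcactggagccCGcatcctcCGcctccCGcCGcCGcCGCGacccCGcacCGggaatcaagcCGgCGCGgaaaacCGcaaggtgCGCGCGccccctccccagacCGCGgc
Gm29478: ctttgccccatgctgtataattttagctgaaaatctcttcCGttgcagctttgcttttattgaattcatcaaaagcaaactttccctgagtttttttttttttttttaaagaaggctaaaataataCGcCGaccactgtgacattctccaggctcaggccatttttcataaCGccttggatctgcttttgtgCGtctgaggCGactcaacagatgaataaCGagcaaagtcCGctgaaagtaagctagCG
Gm35055: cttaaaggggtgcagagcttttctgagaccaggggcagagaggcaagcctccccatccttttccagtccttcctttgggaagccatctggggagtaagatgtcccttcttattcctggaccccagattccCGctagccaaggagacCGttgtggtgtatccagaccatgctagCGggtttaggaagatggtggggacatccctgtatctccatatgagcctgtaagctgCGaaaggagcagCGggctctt
Zfp853: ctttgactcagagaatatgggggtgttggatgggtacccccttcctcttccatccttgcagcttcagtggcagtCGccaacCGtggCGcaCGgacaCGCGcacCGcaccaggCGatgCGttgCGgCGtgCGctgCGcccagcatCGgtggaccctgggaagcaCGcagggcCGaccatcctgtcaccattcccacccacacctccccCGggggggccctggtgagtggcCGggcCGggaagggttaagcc
Begain: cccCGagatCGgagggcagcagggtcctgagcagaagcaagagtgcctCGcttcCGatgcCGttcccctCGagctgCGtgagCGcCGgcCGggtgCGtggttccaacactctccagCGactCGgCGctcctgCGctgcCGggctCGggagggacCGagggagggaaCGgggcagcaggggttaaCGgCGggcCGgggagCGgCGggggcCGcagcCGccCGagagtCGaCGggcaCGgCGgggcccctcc
4933431J24Rik: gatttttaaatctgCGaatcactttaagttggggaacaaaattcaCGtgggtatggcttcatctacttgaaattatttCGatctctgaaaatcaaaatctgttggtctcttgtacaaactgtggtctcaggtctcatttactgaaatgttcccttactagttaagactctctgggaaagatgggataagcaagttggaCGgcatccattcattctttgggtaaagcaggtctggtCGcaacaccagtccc
Gm52008: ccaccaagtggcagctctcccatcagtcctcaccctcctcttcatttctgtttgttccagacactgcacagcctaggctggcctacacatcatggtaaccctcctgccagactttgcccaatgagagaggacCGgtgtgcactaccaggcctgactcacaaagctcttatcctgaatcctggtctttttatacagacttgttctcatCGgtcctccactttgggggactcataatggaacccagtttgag

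Gm46817 (chr3:99241581-99241830, minus strand, 5 CG) lay in the peak annotated to Tbx15, Gm10419 (chr5:108367687-108367936, plus strand, 49 CG) in that of Pde6b, Gm29478 (chr9:91404103-91404352, plus strand, 9 CG) in that of Zic4 and Gm35055 (chr5:28117887-28118136, plus strand, 5 CG) in that of En2. Zfp853 (chr5:143293535-143293784, minus strand, 19 CG) lay in the peak annotated to Zfp316, and Begain (chr12:109053099-109053348, minus strand, 31 CG) in a peak annotated to Begain itself 14.7 kb from another start of that gene. In the 500-base peaks, 4933431J24Rik (chr14:118210715-118210964, plus strand) held 5 CG and Gm52008 (chr12:107110831-107111080, plus strand) held 2. At the Pde6b peak, 20.6 kb from the annotated start, H3K27me3 was 256.04 and 351.97 in CaPS and 232.36 and 401.97 in WT (experiments 1 and 5). At the Begain peak it was 151.9 and 145.37 in CaPS and 114.45 and 211.05 in WT. At the peak with Gm52008, it was 8.19 and 3.76 in CaPS and 6.91 and 4.3 in WT. The 6 wider peaks all overlapped RING1B peaks of the time course, and neither of the 500-base peaks did.

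Most distal peaks were short and weak. Of the 4253, 3182 (74.8%) were 500 bases wide, against 1793 of 4942 other peaks (36.3%). The median width was 500 bases for distal peaks and 807 bases for the others, and the upper quartiles were 596 and 2456 bases. Distal peaks together covered 3.661 Mb, against 11.01 Mb for the others. The median of the mean signal over the 4 libraries was 5.562 at distal peaks and 20.45 at the others. A mean of at least 20 tags per 10 M was reached by 579 distal peaks (13.6%) and by 2509 others (50.8%). Distal peaks lay a median of 51.8 kb from the annotated start, 1391 of them (32.7%) lay over 100 kb away and the farthest lay 2.07 Mb away.

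Signal went with width. Median mean signal was 4.854 at the 3182 distal peaks of 500 bases, 10.5 at the 516 wider ones of up to 1000 bases, 30.76 at the next 233 of up to 2000 bases, 70.41 at the next 260 of up to 5000 bases and 183.4 at the 62 over 5000 bases. Per kb the medians over these classes were 9.71, 14.8, 21.6, 23.8 and 29.2, so that wider distal peaks were also denser. Other peaks of the same classes had higher medians per kb, at 15.9, 23.5, 26.8, 26.5 and 32.3. Of the distal peaks of 500 bases, 1 reached a mean of 20. The nearest other peak lay a median of 62.7 kb from a distal peak of 500 bases and 13.2 kb from a wider one. Another peak lay within 10 kb of 549 of the 500-base peaks (17.3%) and of 490 of the wider ones (45.8%).

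**Figure D1:**
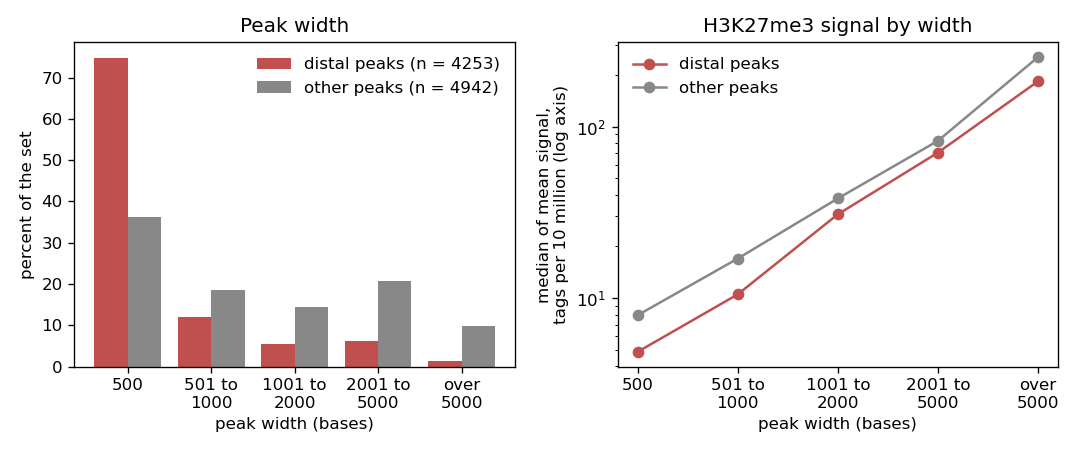
Left, percent of peaks in each width class for the 4253 distal peaks and the 4942 other peaks of the ESC H3K27me3 table. Right, median over peaks of the mean signal of the 4 libraries, in tags per 10 M on a log axis. The 500-base class holds 74.8% of distal and 36.3% of other peaks, and signal is higher in each wider class.

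By the authors' annotation 2969 distal peaks (69.8%) were intergenic and 1152 (27.1%) intronic, while 62 lay in exons, 32 in 3′ UTRs and 30 at transcription ends. Other peaks were intronic in 43.7% and intergenic in 27.7%, with 14.4% at promoters. The distance rule keeps distal peaks away from annotated starts, so these differences follow in part from it. Among these classes, exonic distal peaks had the highest medians, with a width of 1305 bases and a mean signal of 37.24. Of the 62, 33 (53.2%) overlapped a distal day-8 NPC peak, while 22 were 500 bases wide with a median mean signal of 6.481. Exonic peaks of the other set were wide and strong too, with medians of 1982.5 bases and 50.43.

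The detailed annotation, which names repeats and CpG islands, placed 1531 distal peaks (36.0%) in a repeat, against 748 other peaks (15.1%). It gives a single label per peak, and the 710 other peaks at promoters and 334 in exons kept those labels. Such peaks were not counted under repeats or CpG islands. The contrasts in this paragraph thus follow in part from the labelling and the distance rule. LINE L1 elements, long retrotransposons, held 566 distal peaks (13.3%) and 133 others (2.69%). LTR elements, which derive from endogenous retroviruses, held 449 distal peaks (10.6%) and 180 others (3.64%), and most of the distal ones were ERVL-MaLR (215) or ERVK (145). SINE elements held 274 (6.44%) and 285 (5.77%). Distal peaks in L1 had a median width of 500 bases and a median mean signal of 4.616, and 13 of them (2.3%) overlapped a distal day-8 peak. CpG islands held 51 distal peaks (1.2%), against 149 others (3.01%). Those 51 had a median width of 3112 bases and a median mean signal of 80.53; 40 (78.4%) overlapped a distal day-8 H3K27me3 peak and 45 (88.2%) a RING1B peak of the time course. The sources used here do not say how reads matching several repeat copies were placed, so values in repeats are uncertain.

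The 8 strongest distal peaks are named by their nearest gene, which is the annotation's label and not a shown target. The strongest and widest, chr7:70325854-70374479 (48.6 kb), spanned Nr2f2, an orphan nuclear receptor, with 1363.89 and 1919.12 in CaPS (experiments 1 and 5) and 1189.85 and 2387.65 in WT. The Pax2 peak, chr19:44731823-44762873 (31.1 kb), had 1004.61 and 1411.63 in CaPS and 916.77 and 1469.33 in WT; Pax2 is a paired-box factor of kidney and hindbrain. In both, experiment 5 was higher than experiment 1 in either genotype, and the ranges of the genotypes overlapped.

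The next peaks did not reach their annotated start. Mir9-3hg, the host transcript of a neural microRNA, had a 17.2 kb peak 23.2 kb away with 563.02 and 779.82 in CaPS and 523.87 and 934.44 in WT. Nr2f1, a paralogue of Nr2f2, had 533 and 778.31 in CaPS and 432.46 and 916.18 in WT over 23.8 kb (chr13:78164680-78188491). Peg12, an imprinted gene, had 568.93 and 562.32 in CaPS and 476.63 and 712.91 in WT over 19.7 kb (chr7:62443565-62463219). Cyp26b1, which degrades retinoic acid, had 435.68 and 519.13 in CaPS and 462.04 and 839.38 in WT at an intronic peak (chr6:84576278-84590310). Hoxb13 had 393.84 and 600.83 in CaPS and 398.28 and 805.01 in WT, and Gm26688 had 382.02 and 544.29 in CaPS and 361.79 and 616.25 in WT. Genotype ranges overlapped at all 8, and all 8 overlapped RING1B peaks of the time course.

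The 5 peaks farthest from a start were all 500 bases wide and weak. The farthest, annotated to Rag2 at 2.07 Mb, had 3.18 and 1.69 in CaPS and 8.07 and 6.44 in WT. The others, annotated to Lrrc4c, Gm20268, Cdh6 and Olfm4, lay 1.7 to 1.95 Mb away and had between 0.38 and 10.01 in single libraries. Several of these values lie at or under the level that 3 tags give. At the limit itself, the 2 nearest distal peaks were annotated to Lrrn3 (10002 bases) and Arhgap31 (10006 bases), with mean values of 6.52 and 10.71 in CaPS and 4.32 and 9.86 in WT. The 2 nearest on the other side were annotated to Foxn4 (9982 bases) and Mkrn3 (9978 bases), with 6.6 and 6.69 in CaPS and 3.36 and 11.9 in WT.

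Some genes had many distal peaks. The most were annotated to Prl2c3, of the placental prolactin family, and to Tenm4, a neuronal teneurin, with 12 each, then to Adamts18 with 11 and Pappa with 10. On chromosome 7, Cdkn1c, an imprinted inhibitor of cyclin-dependent kinases, had 9 distal peaks, its neighbours 4933417O13Rik 8, Kcnq1 7 and Th 7. The strongest peak of these 4 genes, annotated to Kcnq1, had 133.71 and 117.76 in CaPS and 107.54 and 160.3 in WT and lay in an intron. Pax3 and Nfia, a paired-box and a nuclear factor I gene, had 8 each, and Tbx5 and Lmx1b 7 each. Of the 7 peaks of Lmx1b, 6 were wider than 500 bases and 5 overlapped RING1B, while of the 12 of Tenm4, 2 were wider and 0 overlapped RING1B.

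Gene lists, counted by nearest gene, differed in the kind of distal peak they held. Homeobox families, such as Pax, Lhx, Dlx and Meis, had 82 distal peaks at 33 genes, 41 wider than 500 bases (50.0%) and 31 over RING1B. Neural progenitor genes had 37 at 12 genes, with 19 wider, 16 over RING1B and 16 shared with distal day-8 peaks. Over all distal peaks 25.2% were wider, 590 of 4253 overlapped RING1B and 524 a distal day-8 peak. The strongest of the neural list was 145 kb from Meis1, a TALE homeobox gene, at chr11:18869668-18877549, with 210.56 and 315.72 in CaPS and 216.62 and 392.04 in WT. Of 2 strong Meis2 peaks, 205 and 211 kb away, the stronger had 132.8 and 159.83 in CaPS and 106.77 and 239.52 in WT. Hox genes had 6 distal peaks, 4 of them wider and 4 over RING1B. A peak 51.8 kb from Hoxc4 in a CpG island had 142.8 and 173.17 in CaPS and 113.3 and 211.32 in WT. Wnt genes had 18 distal peaks, 6 of them wider. The peak in the last exon of Wnt8b, a signalling ligand of the forebrain, had 174.18 and 190.45 in CaPS and 134.42 and 232 in WT.

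Mesoderm genes had 17 distal peaks, 8 of them wider, led by Tbx5, a heart and limb T-box factor, with 189.19 and 274.59 in CaPS and 175.14 and 378.34 in WT at a CpG island 30.8 kb away. Endoderm genes had 9, 5 of them wider; the Gata4 peak 24 kb away, on both lists, had 120.06 and 180.49 in CaPS and 137.11 and 313.63 in WT. Pluripotency genes had 9, 5 of them wider and 1 over RING1B, the highest at Tbx3 with 41.84 and 27.23 in CaPS and 28.81 and 29.81 in WT. Genes that mark feeder fibroblasts had 4 distal peaks, led by Twist1, also a mesoderm gene, with 70.04 and 90.53 in CaPS and 59.15 and 107.68 in WT. The part of feeder chromatin in these values was not tested. Cyclin-dependent kinase inhibitors had 10 distal peaks, 9 of them at Cdkn1c, imprinted genes 15 and potassium channel genes 60. The housekeeping list had 0. Protocadherin genes had 12, 1 of them wider, and olfactory and vomeronasal receptors 32, 4 of them wider and 0 shared with distal day-8 peaks.

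The first comparison asked whether H3K27me3 at distal peaks differed between CaPS and WT ESC. In limma's test with the experiment as a block and p-values adjusted by Benjamini-Hochberg over the 9195 peaks, 0 of the 4253 distal peaks were lower and 0 higher in CaPS at an adjusted p under 0.05. Over the whole table the share called was 0% in each direction. At an unadjusted p under 0.05 there were 45 distal peaks, edgeR on recovered read ends called 0, with 43 at an unadjusted p under 0.05. DESeq2 called 1 lower, with 93 at an unadjusted p under 0.05, but gave no adjusted p for 4214 of the 4253. limma gave each peak the variance usual at its signal, so p-values do not rest on a peak's own libraries. In no gene list was a distal peak called. For the counts that follow, the share called over the whole table is not given here. With libraries scaled to the same sum over all peaks limma called 10 distal peaks lower and 2 higher, and without WT of experiment 1 and the block it called 42 lower.

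The 2 experiments differed in direction. The median log2 ratio of CaPS over WT at distal peaks was 0.45 in experiment 1 and -0.23 in experiment 5, with log2(value + 1). At the other peaks the ratio was lower by 0.19 and 0.13. In 1713 distal peaks (40.3%) CaPS was higher in experiment 1 and lower in experiment 5; CaPS was lower in both in 1099 (25.8%) and higher in both in 950 (22.3%). The difference between distal and other peaks within a library, on the log2 scale, was -1.06 and -2.03 in CaPS and -1.05 and -2.2 in WT. An exact two-sided permutation test over the 4 libraries gave p = 1.0, and the smallest p that 2 against 2 allows is 0.333. Distal peaks held 0.675% and 0.644% of all tags in CaPS and 0.57% and 0.851% in WT, or 0.659 ± 0.022% and 0.71 ± 0.199% (SD, n = 2 each; exact permutation p = 1.0). As a share of tags in all peaks they held 17.6 ± 2.51% in CaPS and 17.6 ± 2.13% in WT (SD, n = 2 each).

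At short peaks the medians were ordered by experiment, not by genotype. At the 3182 distal peaks of 500 bases the medians were 7.73 and 3.57 in CaPS and 5.76 and 4.03 in WT for experiments 1 and 5. The library with the highest value was one of experiment 1 in 2777 of them (87.3%), against 1007 of the 1793 other peaks of that width (56.2%). At the 1071 wider distal peaks the medians were 21.83 and 21.6 in CaPS and 18.82 and 29.27 in WT, and WT of experiment 5 was highest in 657 (61.3%). At distal peaks over 5000 bases it was highest in 61 of 62. CaPS of experiment 5, the deepest library, was the highest in 32 short and 30 wider distal peaks. A 500-base peak at the median held between 7.5 and 9.5 tags per library.

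**Figure D2:**
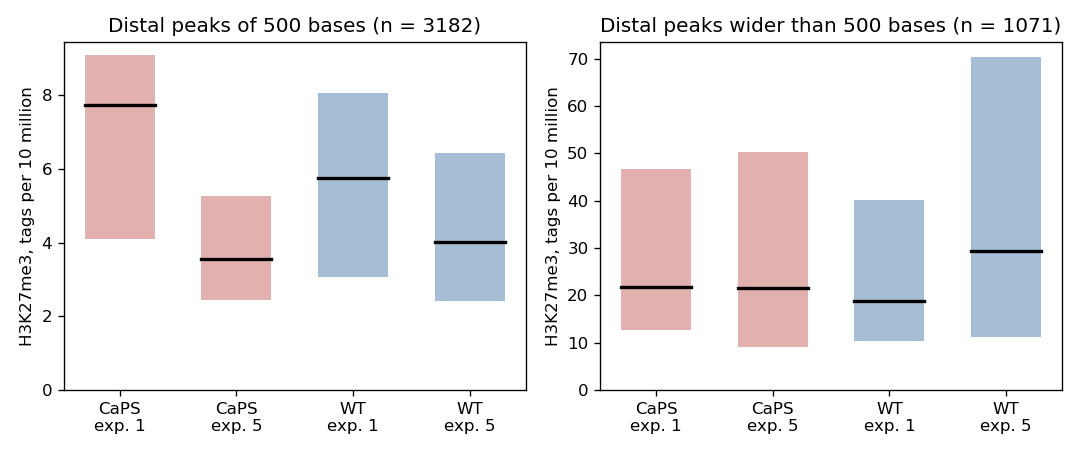
H3K27me3 in tags per 10 M at distal peaks of 500 bases (left, n = 3182) and at wider ones (right, n = 1071), for CaPS and WT in experiments 1 and 5. Boxes span the quartiles over peaks and black lines are medians. At 500-base peaks both experiment 1 libraries have higher medians than both of experiment 5.

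Chromosomes 6 and 8 stood apart. Over their 679 distal peaks the median log2 ratio of CaPS over WT was -0.31 in experiment 1 and -0.46 in experiment 5. For the 17 other autosomes the chromosome medians lay between 0.25 and 1.01 in experiment 1 and between -0.29 and -0.03 in experiment 5. The distal peaks wider than 500 bases on chromosomes 6 and 8 had -0.09 and -0.67, against 0.31 and -0.34 on the other autosomes, and the other peaks of these 2 chromosomes had -0.05 and -0.66, against 0.28 and -0.33. Chromosomes 8 and 6 also had the highest shares of distal peaks among the autosomes, 57.5% and 52.2% of their peaks, against 40.1% to 51.3%. At 500-base distal peaks of chromosomes 6 and 8 the medians were 5.91 and 3.38 in CaPS and 7.3 and 4.3 in WT. On the other autosomes they were 8.19 and 3.57 in CaPS and 4.99 and 3.76 in WT.

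**Figure D3:**
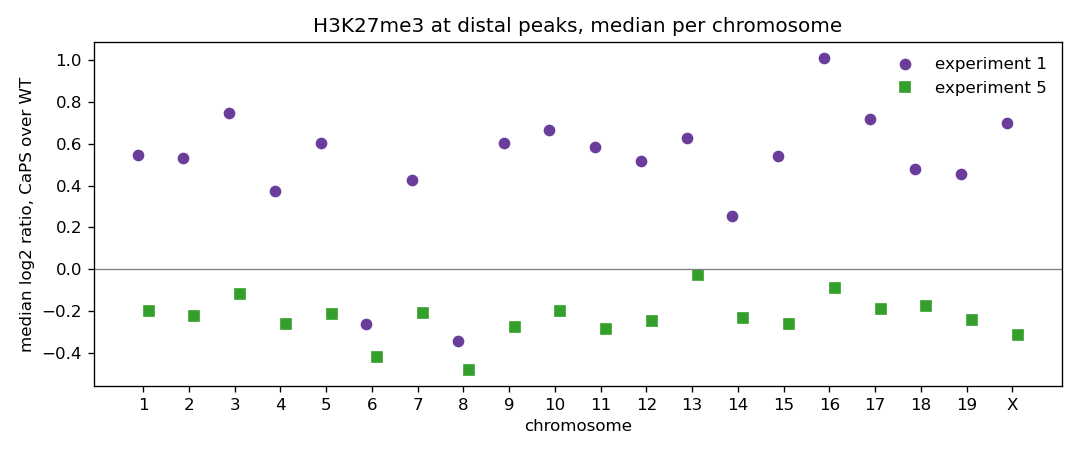
Median log2 ratio of CaPS over WT in H3K27me3 at distal peaks for each chromosome, in experiments 1 and 5. Chromosomes 6 and 8 lie below 0 in both experiments, while the 17 other autosomes lie between 0.25 and 1.01 in experiment 1 and between -0.29 and -0.03 in experiment 5.

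Among distal peaks with a mean of at least 20 and the same direction in both experiments, the highest ratio was at Zdbf2, an imprinted zinc finger gene, at chr1:63307893-63310505 in its last exon. It had 51.39 and 42.07 in CaPS and 19.97 and 29.81 in WT, with no overlap between genotypes. The log2 difference was 0.90 ± 0.50 (SE), with an adjusted p of 1.0 by limma and between 0.00457 and 1.0 under the alternatives tried. Next came peaks annotated to Cwc22 (44.57 and 18.59 in CaPS, 19.97 and 15.04 in WT), Prl2c3 (49.12 and 33.62 in CaPS, 28.04 and 24.97 in WT), Tspan2 (52.3 and 47.89 in CaPS, 23.81 and 46.99 in WT) and Dirc2 (33.65 and 30.61 in CaPS, 16.13 and 29.27 in WT). Of these 4, the genotypes overlapped at Cwc22 alone. Picking peaks by ratio and direction in both experiments favours such separation, so it is no added support. The share of all distal peaks without overlap is not given here.

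The lowest ratio was at an intron 1 peak of Trio with 9.55 and 23.29 in CaPS and 31.11 and 37.06 in WT, a log2 difference of -1.13 ± 0.50 (SE; adjusted p = 1.0 by limma). Sox5, an SRY-box factor, had 31.83 and 21.22 in CaPS and 48.01 and 66.06 in WT at a peak 155 kb away (chr6:144363352-144365131). 2210408F21Rik, also on chromosome 6, had 25.47 and 27.61 in CaPS and 45.7 and 70.62 in WT. Dusp4, a MAP kinase phosphatase gene on chromosome 8, had 20.01 and 30.8 in CaPS and 34.18 and 82.43 in WT. Zfp608 had 17.74 and 20.28 in CaPS and 30.34 and 53.17 in WT. The genotypes did not overlap at any of these 5, which were picked by the same rule, so the same limit holds. Of the 5, 3 lie on chromosomes 6 and 8. None of the 5 was called by limma in the main setting. All 5 passed at an adjusted p under 0.05 in limma with libraries scaled to the same sum over all peaks. Each missed that threshold under at least 1 other alternative.

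The overlap with day-8 NPC was small and rested on the wide peaks. Of the 4253 distal ESC peaks, 524 (12.3%) overlapped a distal day-8 H3K27me3 peak by at least 1 base, and 576 (13.5%) any day-8 peak, against 2875 of 4942 other ESC peaks (58.2%). In reverse, 528 of 3022 distal day-8 peaks (17.5%) overlapped a distal ESC peak. The exact 95% binomial interval of the 12.3%, which covers counting error alone, ran from 11.3% to 13.3%. By width, a distal day-8 peak was met by 4.34% of distal ESC peaks of 500 bases, then 16.3% of those up to 1000 bases, 42.1% of those up to 2000, 61.5% of those up to 5000 and 71.0% of the widest class. For any day-8 peak the lowest and highest classes had 4.75% and 82.3%, against 26.4% and 97.3% at other ESC peaks. The 524 shared peaks had a median width of 1394 bases and a median mean signal of 35.21, and the 3677 without any day-8 peak had 500 bases and 5.162. L1 held 2.48% of the shared peaks and 15.0% of those without. The day-8 columns differ in depth, with 32.9 M tags for CaPS and 4.47 M for WT, and peaks of the day-8 table were 500 bases wide in 24.2% of cases.

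**Figure D4:**
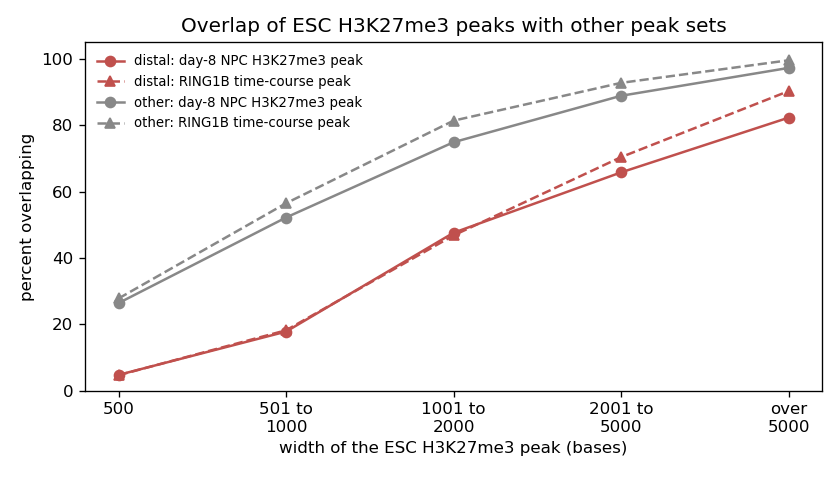
Percent of ESC H3K27me3 peaks that overlap any day-8 NPC H3K27me3 peak (circles) or any RING1B peak of the time course (triangles), by width of the ESC peak, for distal and other peaks. Among distal peaks both shares are under 5% at 500 bases and reach 82.3% and 90.3% over 5000 bases.

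The strongest shared peaks were those of Nr2f2, Pax2, Mir9-3hg, Nr2f1 and Gm26688. The day-8 interval with the most bases in common held, by the authors' pooled values, 2466.69 in CaPS and 4259.93 in WT at Pax2, 949.39 in CaPS and 1746.72 in WT at Mir9-3hg, 641.8 in CaPS and 687.05 in WT at Nr2f1, and 1167.58 in CaPS and 2224.52 in WT at Gm26688. At Nr2f2 it was 618.99 in CaPS and 2155.14 in WT, and that day-8 interval lay within 10 kb of the start. The strongest distal ESC peaks with no day-8 peak were a second Peg12 peak (chr7:62477686-62491702), with 294.7 and 306.14 in CaPS and 231.59 and 360.89 in WT, and the Meis1 peak given above. Mir6374 had 137.34 and 166.41 in CaPS and 141.72 and 264.22 in WT. Pcdh7, a protocadherin gene, had 163.72 and 155.32 in CaPS and 120.98 and 215.35 in WT, and the fifth was the Hoxc4 peak given above. All 5 overlapped a RING1B peak of the time course, and the genotypes overlapped at each.

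With 1 column per genotype, day-8 H3K27me3 has no replicate check. At the 528 distal day-8 peaks that overlap a distal ESC peak the median was 75.42 in CaPS and 114.1 in WT, and the median log2 ratio was -0.70. Past 2-fold, 151 (28.6%) were lower and 16 (3.03%) higher in CaPS. Over all 8657 day-8 peaks 53.1% were lower and 2.8% higher, with a median log2 ratio of -1.06. The 2469 distal day-8 peaks without an ESC peak had medians of 6.54 in CaPS and 24.62 in WT, a median log2 ratio of -2.03. For WT a count of 3 tags corresponds to 6.71 tags per 10 M. The columns differed in depth 7-fold, and its part in these ratios was not tested.

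RING1B overlap also went with width. A RING1B peak of the time course met 590 distal H3K27me3 peaks (13.9%) and 3037 others (61.5%). By width class the shares of distal peaks were 4.65%, 18.2%, 46.8%, 70.4% and 90.3%. Of the 576 distal peaks with a day-8 H3K27me3 peak 421 (73.1%) also met RING1B, and of the 3677 without, 169 (4.6%). The ESC CUT&RUN tables hold 0 distal intervals, so that the overlap of 3.13% with H3K27me3 CUT&RUN peaks and of 0.752% with RING1B CUT&RUN peaks is bounded by that limit.

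In the RING1B time course 543 RING1B peaks overlapped a distal ESC H3K27me3 peak, and many fell between ESC and day 8 in both genotypes. In CaPS the library medians were 54.18 and 62 in ESC, 29.63 and 53.68 at day 6 and 23.68 and 32.31 at day 8 (experiments 3 and 5). In WT they were 61.01 and 64.16 in ESC, 25.32 and 32.39 at day 6 and 19.05 and 25.8 at day 8. In CaPS 218 of the 543 were called lower and 12 higher at day 8 than in ESC by limma, with a median log2 change of -1.06. Over all 15091 RING1B peaks 14.1% were called lower and 1.63% higher. In WT 303 were called lower and 3 higher, with a median of -1.48, and over all RING1B peaks 20.9% were lower and 1.73% higher. The medians over all RING1B peaks were -0.48 in CaPS and -0.61 in WT. In ESC, all RING1B peaks had library medians of 9.37 and 10.33 in CaPS and 7.26 and 11.0 in WT, under those of the 543. Shares were not compared at like signal, so the part of signal in these differences was not tested. Here too limma gave each peak the variance usual at its signal, not that of its own libraries.

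The count of falls depended on scaling. With each library scaled to the same sum over all peaks, 129 were lower and 48 higher in CaPS, and 114 lower and 52 higher in WT. The shares called over all RING1B peaks under the settings below and at this scaling are not given here. These counts can thus not be set against the whole table. Without the block, CaPS had 145 lower and 7 higher. Leaving out CaPS ESC of experiment 3, CaPS day 8 of experiment 3 or CaPS day 8 of experiment 5 left 125, 121 and 127 lower in CaPS. The members were picked by H3K27me3 in ESC, the stage with the higher RING1B. Experiment 5 of the time course held 2.01 to 6.2 M tags per library, against 11.3 to 25.3 M in experiment 3.

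**Figure D5:**
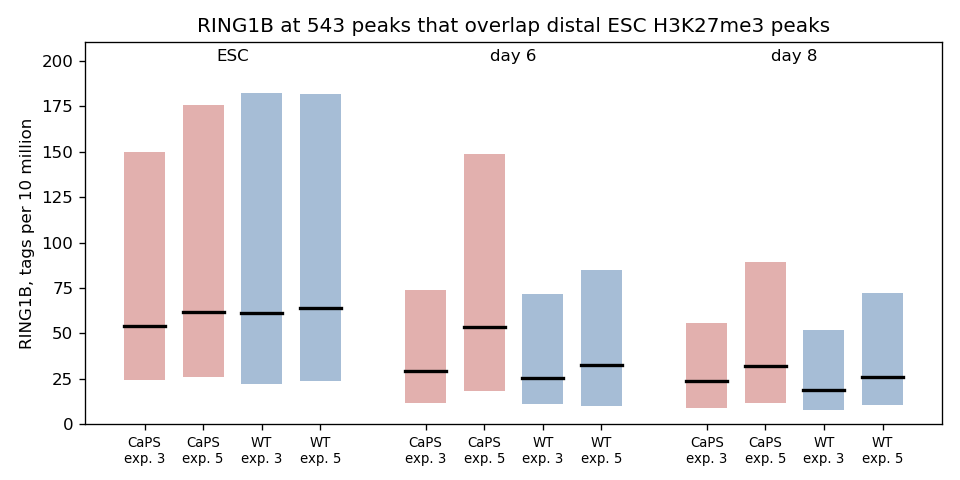
RING1B in tags per 10 M at the 543 time-course peaks that overlap a distal ESC H3K27me3 peak, for CaPS and WT in experiments 3 and 5 at ESC, day 6 and day 8. Boxes span the quartiles over peaks and black lines are medians. Medians lie between 54.18 and 64.16 in ESC and between 19.05 and 32.31 at day 8.

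At the RING1B peak with the most bases in common with the Nr2f2 peak, RING1B was 947.01 and 1732.73 in CaPS day-8 cells and 5523.06 and 5854.45 in CaPS ESC, with a log2 change of -2.15 ± 0.56 (SE; adjusted p = 0.00187 by limma). In WT it was 1041.61 and 2839.36 at day 8 and 6667.93 and 7721.41 in ESC, a change of -2.06 ± 0.56 (adjusted p = 0.00198 by limma). Pax2, Mir9-3hg and Peg12 were also called lower at day 8 in both genotypes, with log2 changes of -1.59, -2.03 and -1.97 in CaPS and -1.62, -1.67 and -1.54 in WT. At Nr2f1 the change was -0.76 ± 0.52 (SE) in CaPS, not called, and -1.91 ± 0.52 in WT. The difference between these courses, 1.15 ± 0.73, had an adjusted p of 0.72 by limma. The Nr2f1 RING1B interval was 51047 bases wide, shared 23812 bases with the distal H3K27me3 peak and lay 9486 bases from its annotated start. The Pax2 RING1B interval also lay within 10 kb of its start, so neither interval is distal by the limit used here.

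The largest falls called in WT were at Olfr1238, an olfactory receptor gene, Gm3942 and Arhgef26. At Gm3942 RING1B was 10.85 and 15.66 in CaPS day-8 cells and 125.06 and 235.58 in CaPS ESC. In WT it was 10.58 and 16.12 in day-8 cells and 207.21 and 339.14 in ESC, so that the stages did not overlap in either genotype. Those called higher in WT included peaks annotated to Prss16, a thymic protease gene, and Rasgrf1, an imprinted Ras exchange factor, with log2 changes of 1.47 and 1.08. In CaPS the log2 changes were 2.09 at Prss16 and 1.35 at Rasgrf1, and both were called there too.

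Between genotypes in ESC, 0 of the 543 RING1B peaks were called in either direction, against 0.0265% lower and 0.0398% higher over all RING1B peaks; 37 had an unadjusted p under 0.05, and edgeR called 0, with 31 at an unadjusted p under 0.05. At day 8, 3 were lower and 8 higher in CaPS, against 0.245% and 0.769% over all. The difference between the 2 courses was called at 5 of the 543, all with the higher day-8 value relative to ESC in CaPS, and at 0 in the other direction, against 0.199% and 0.0729% over all. The 5 were at Nap1l2, Chd7, 4930519L02Rik, Lactbl1 and Lin28b. With libraries scaled to the same sum over all peaks, 5 were called higher and 12 lower, and of the 5 named, Nap1l2 and Lactbl1 missed the threshold. The count was 0 without the block, and 0 without the experiment 5 library of CaPS ESC, of CaPS day 8 or of WT day 8. At Lin28b, Chd7 and Lactbl1 the call was also lost without single experiment 3 libraries. For the difference between the courses 53 of the 543 had an unadjusted p under 0.05, in either direction, and edgeR called 2 higher and 0 lower.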

How the data were processed

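H3K27me3 ChIP-seq, RING1B ChIP-seq and CUT&RUN were measured in mouse J1 cells. Per the file headers, the deposited signal is the number of tags in each peak, scaled to 10 M tags per library by HOMER's annotation tool, on mm10. The submitters' processing notes name HOMER 4.10.4, Bowtie2 2.3.4.3, cutadapt 1.14 and SAMtools 1.9. Per the series' design text, ChIP peaks were called over input. The labels' protocols add Drosophila chromatin as a spike, but the file headers record scaling to total tags alone, so a change in the total level would not show.

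Distal peaks were those over 10000 bases from the annotated start. The members, gene lists and tests were chosen with earlier results of these data known. Signal was tested as log2(value + 1) in limma 3.58.1 (R 4.3.3) with a trend, on all peaks of a table, with the experiment number as a block and Benjamini-Hochberg adjustment. The block comes from the design text, by which compared experiments were done together; deviations of same-numbered libraries correlated at 0.0939 in the H3K27me3 table and 0.0645 to 0.215 in the time course. Read ends (0.5 tag each) recovered from the scaled signal were whole in 100% of values within a tolerance of 0.1, and were tested in edgeR 4.0.16 and, for H3K27me3, DESeq2 1.42.0. Overlaps used bedtools 2.31.1 with at least 1 base in common. Named peaks were those highest, widest, farthest, with the highest or lowest ratio at a mean of at least 20 with the same direction in both experiments, nearest to the distance limit, and the highest of each list. RefSeq windows are GRCm38.p6, the patch release of mm10; symbols' starts lay within 10 bases of those implied by the tables for 89.2% of 6664 peaks compared. The limma steps were tested on simulated data. Tables not used here hold 26 value columns. Some results that the naming rule would give are not reported here.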

Additional observations from a re-analysis of the deposited data

Results flagged for a closer look

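At 5 RING1B peaks that overlap a distal ESC H3K27me3 peak, the change from ESC to day 8 differed between genotypes by limma's test of the difference itself, in each case with the higher day-8 value relative to ESC in CaPS. Near Chd7, a chromatin remodeller gene, RING1B was 369.21 and 679.39 in CaPS day-8 cells and 69.25 and 84.73 in CaPS ESC (experiments 3 and 5), and 79.15 and 60.46 in WT day-8 cells and 58.32 and 55 in WT ESC. The course in CaPS minus that in WT was 2.41 ± 0.50 on the log2 scale (SE; adjusted p = 0.00393 by limma), and both CaPS day-8 libraries lay above those of CaPS ESC and of both WT stages.

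Near Lin28b, an RNA-binding protein gene, values were 145.24 and 302.49 in CaPS day-8 cells and 64.36 and 82.66 in CaPS ESC, and 54.18 and 31.44 in WT day-8 cells and 52.14 and 69.66 in WT ESC, a difference of 2.04 ± 0.52 (adjusted p = 0.0384 by limma). Near 4930519L02Rik values were 199.11 and 327.95 in CaPS day-8 cells and 55.2 and 53.73 in CaPS ESC, and 95.23 and 44.34 in WT day-8 cells and 61.28 and 82.49 in WT ESC, a difference of 2.34 ± 0.51. Each SE here is the one usual at the peak's signal, not the spread of its own libraries. The remaining 2 were weaker peaks. Near Nap1l2 the difference was 3.52 ± 0.74, with 33.74 and 46.01 in CaPS day-8 cells and 16.29 and 0 in CaPS ESC, where the 0 allows up to 12.4, against 14.81 and 12.9 in WT day-8 cells and 12.36 and 22 in WT ESC. Near Lactbl1 it was 3.71 ± 0.94, with 10.66 and 9.79 in CaPS day-8 cells and 21.59 and 2.07 in CaPS ESC, against 1.27 and 4.03 in WT day-8 cells and 21.23 and 47.66 in WT ESC.

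None of the 5 passed without the replicate block, with a pseudocount of 0.1, or without any 1 of the experiment 5 libraries of CaPS ESC, CaPS day 8 or WT day 8. With libraries scaled to the same sum over all peaks, Nap1l2 and Lactbl1 missed the threshold (adjusted p = 0.0713 and 0.0967 by limma), and over the 543 peaks 5 were called higher and 12 lower. At Nap1l2 the difference was 1.16 without CaPS ESC of experiment 5 and 5.89 without that of experiment 3. Without WT ESC of experiment 5 the differences were 2.95 at Nap1l2, 2.63 at Chd7, 2.11 at 4930519L02Rik, 2.99 at Lactbl1 and 2.03 at Lin28b. Calls depended on that library too. At Lactbl1 it was 2.02 without CaPS ESC of experiment 5, and at Lin28b 1.35 without WT day 8 of experiment 5. Calls were also lost without single experiment 3 libraries. Lin28b missed the threshold without that of WT ESC, WT day 6, CaPS ESC or CaPS day 8. Chd7 missed it without WT ESC of experiment 3, and Lactbl1 without WT day 8 or CaPS day 8 of experiment 3. The Lactbl1 values of 2.07 in CaPS ESC and of 1.27 and 4.03 in WT day-8 cells lie under the level that 3 tags give in those libraries. With a pseudocount of 10 the difference was 1.78 at Nap1l2 and 1.81 at Lactbl1, and neither passed. The depth of experiment 5 was under that of experiment 3 at each of these stages, and its part in the differences was not tested.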

How the results depend on the processing

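The count of distal H3K27me3 peaks called between CaPS and WT ESC depended on scaling: 10 lower and 2 higher with libraries scaled to the same sum over all peaks, and 4 lower and 1 higher without scaling to 10 M. DESeq2 called 1 lower. Shares called over the whole table are not given for these settings. Leaving out 1 library gave 0 to 42 lower, the 42 without WT of experiment 1 and with the lone WT library assumed to vary like the CaPS ones, and 0 to 0 higher. Without the replicate block 0 were called. Of 766 values at 61 named peaks under 13 alternatives, 18 changed their side of the threshold.

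The median log2 ratio of CaPS over WT at distal minus other peaks, 0.11, was -0.0252 at a mean of at least 20, -0.00139 over peaks wider than 500 bases (chosen after seeing the data), 0.168 without chromosomes 6, 8 and 14 and 0.185 with a limit of 50000 bases. It was 0.125 without experiment 1 and 0.192 without experiment 5, and over all distal peaks -0.234 and 0.45. The difference in the percent of tags in distal peaks, -0.051, was 0.0341 as a percent of tags in peaks, and -0.207 without experiment 1 and 0.105 without experiment 5.

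The share of distal ESC peaks that overlap distal day-8 peaks was 9.22% and the reverse share 11.8% with at least 50% of the ESC peak covered, and 10.8% and 15.0% with 50% of the shorter peak. With limits of 5000, 20000 and 50000 bases the shares were 13.5%, 11.3% and 8.04%, and the reverse shares 18.9%, 16.0% and 12.3%. The share was 13.5% for any day-8 peak, 24% above the median signal, 13.4% without chromosomes 6, 8 and 14, and, chosen after seeing the data, 10.6% for peaks also 10000 bases from every RefSeq start and 36.0% for peaks wider than 500 bases. With the 3 limits, overlap with H3K27me3 CUT&RUN peaks was 10.4%, 0.268% and 0%, with RING1B CUT&RUN peaks 4.48%, 0% and 0%, and with time-course RING1B peaks 16.0%, 11.8% and 8.5%. Above the median signal these were 6.12%, 1.51% and 27.2%, and with 50% of the ESC peak covered the RING1B shares were 0.4% for CUT&RUN and 10.5% for the time course.

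Peaks of 500 bases made up 72.3%, 76.7% and 79.5% with the 3 limits, 52.3% above the median signal and 76.4% away from every RefSeq start. Intergenic peaks made up 67.1%, 71.2% and 73.9% with the 3 limits and 41.3% by the detailed annotation, and intronic ones 24.7% with the limit of 50000 bases and 18.4% by the detailed annotation.

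In the RING1B time course, equal sums per library gave 129 lower and 48 higher at day 8 in CaPS, 114 lower and 52 higher in WT, 3 lower and 2 higher between genotypes in ESC, and 12 lower and 5 higher for the difference between courses. Without the replicate block, CaPS had 145 lower and 7 higher, WT 1 higher and the difference between courses 0 higher. With limits of 20000 and 50000 bases, and so fewer members, CaPS had 135 and 48 lower, and 7 higher at the larger limit; WT had 1 and 0 higher, and 77 lower at the larger limit; and the courses differed at 3 and 2. The limit of 5000 bases gave 1 lower in ESC and 1 lower for the courses. WT had 5 higher with a pseudocount of 10 or a mean of at least 20. The courses differed at 0 with a pseudocount of 0.1, at 3 with 10 and at 2 in edgeR. Shares called over all RING1B peaks are not given for the settings of this paragraph. Leaving out 1 library gave 121 to 246 lower and 4 to 14 higher in CaPS, 203 to 320 lower and 1 to 6 higher in WT, 0 to 4 lower and 0 to 1 higher in ESC, and 0 to 1 lower and 0 to 6 higher for the courses.

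Causes of these changes were not tested. Depth limits the 500-base peaks most, at 7.5 to 9.5 tags per library at the median, and the 2.01 M to 6.2 M tags of experiment 5 in the time course.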
